A study of Arabidopsis thaliana with 4 samples.

Results

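Trehalose-6-phosphate synthase (TPS) transcripts were compared between lux-6 and Col-0 seedlings of Arabidopsis thaliana. The members were fixed by their AGI identifiers, TPS1 of class I and TPS5 to TPS11 of class II, and all 8 were found among the 33602 genes in the files. The mutants were lux-6, labelled lux -/- in the Col-0 ecotype, and were set against wild-type Col-0, with 2 libraries per genotype that the series calls biological replicates. All seedlings were 10 d old, grew in LD at 22 °C on MS medium with 3% sucrose and were collected whole at ZT12, that is 12 h after lights on. LUX encodes a DNA-binding subunit of the evening complex, a repressor that acts around dusk, and the labels do not give the lesion in lux-6. The deposited unit is FPKM, that is fragment numbers relative to gene length and to the library's total.

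Trehalose-6-phosphate is a sugar phosphate made by TPS1 from UDP-glucose and glucose-6-phosphate. It rises and falls with sucrose in plant tissue and restrains SnRK1, the protein kinase that switches on carbon-saving genes when sugar runs short. The class II proteins carry both a synthase-like and a phosphatase-like domain, but have no clear synthase activity, and their transcripts are among the best known sugar-responsive ones. TPS5 is known to be raised by sucrose, and TPS8, TPS9, TPS10 and TPS11 to be lowered by it and raised in carbon-starved tissue. Neither sugars nor trehalose-6-phosphate were measured in the data used here.

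The gene models set TPS1 apart from the other members. In the RefSeq annotation of TAIR10.1 the transcript of TPS1 with the longest coding sequence had 17 coding exons, against 3 in each of the 7 class II genes. Its coding sequence of 2829 bases shared between 59.9% and 61.9% of aligned bases with the class II members. TPS8 and TPS9 were the most alike pair, with 81.1% identity over 2567 aligned coding bases, followed by TPS8 and TPS10 at 72.4% and TPS9 and TPS10 at 72.2%. TPS11 was no closer to TPS8 (67.2%) than TPS6 was (68.5%). No stretch of 50 bases was shared between the transcripts of any pair of members, and the longest shared stretch was one of 32 bases in TPS8 and TPS9. TPS7 to TPS11 overlapped no other annotated gene. By whole gene spans, TPS1 overlapped AT1G78570 by 99 bases and a long non-coding RNA by 429 bases. TPS5 overlapped AT4G17780 by 128 bases and TPS6 overlapped AT1G68030 by 207 bases. Strandedness of the libraries is not given in the labels, so reads in these overlaps cannot be assigned with certainty.

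The promoters of the members that differed most between genotypes are shown with that of TPS9, the closest relative of TPS8. Each is the 250 bases before the RefSeq gene start in TAIR10.1, written 5′ to 3′ on the gene's strand. For TPS8 and TPS9 the capitals mark the longest stretch that both windows share, and for TPS11 they mark TATCCA, a motif known from sugar-starvation promoters of cereals.
TPS8 (AT1G70290, minus strand, chr1:26474834-26475083): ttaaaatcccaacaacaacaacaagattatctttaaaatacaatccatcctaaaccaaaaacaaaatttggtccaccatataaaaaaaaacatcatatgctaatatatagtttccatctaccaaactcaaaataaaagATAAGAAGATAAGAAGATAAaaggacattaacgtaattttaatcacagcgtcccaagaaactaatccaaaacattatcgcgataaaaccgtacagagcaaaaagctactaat
TPS9 (AT1G23870, plus strand, chr1:8431929-8432178): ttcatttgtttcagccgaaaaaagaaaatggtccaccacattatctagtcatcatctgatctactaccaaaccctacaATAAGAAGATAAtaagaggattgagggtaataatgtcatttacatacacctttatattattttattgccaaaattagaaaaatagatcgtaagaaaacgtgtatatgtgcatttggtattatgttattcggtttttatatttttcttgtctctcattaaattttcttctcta
TPS11 (AT2G18700, plus strand, chr2:8108648-8108897): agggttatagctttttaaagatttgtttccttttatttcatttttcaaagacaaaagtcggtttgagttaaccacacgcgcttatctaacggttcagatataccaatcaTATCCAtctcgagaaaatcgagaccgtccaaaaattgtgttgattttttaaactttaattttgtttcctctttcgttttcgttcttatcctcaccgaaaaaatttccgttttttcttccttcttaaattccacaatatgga

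The stretch shared by TPS8 and TPS9 was 12 bases long. It stood in TPS8 as 2 overlapping copies, which began 112 and 104 bases before the gene start, and in TPS9 as 1 copy that began 172 bases before the start. It was present on either strand in 10 of 27443 promoters of protein-coding nuclear genes. Both forms of the published LUX binding site, GATACG and GATTCG, were looked for on both strands and were found in 0 of the 8 member windows, against 4.6% and 7.9% of all promoters. The evening element AAAATATCT was likewise in 0 members and in 2.4% of promoters. The G-box CACGTG, bound by bZIP and PIF factors, was in the window of TPS6, against 6.5% of promoters. TATCCA was in the windows of TPS6, TPS10 and TPS11, against 13.6% of promoters. No match of one motif overlapped a match of another. A missing match says only that these letters are not in the window.

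The libraries were alike in depth, with totals worked back from the values of between 10735709 and 11198704 fragments. The LUX transcript (AT3G46640) was at 34.8 and 35.3 FPKM in lux-6 and at 57.0 and 73.9 FPKM in Col-0, which did not pass the test (limma adjusted p = 0.187). Col-0 replicate 2 was unlike the rest. Its correlation with Col-0 replicate 1 across genes was 0.909, against 0.984 between the lux-6 libraries, and plastid transcripts made up 3.09% of its FPKM, against 0.0525% to 0.0698% in the other libraries. All 8 seed markers were higher in lux-6 without overlap, as were 26.1% of all tested genes. Of the 8, 3 were called higher in limma, against 0.286% of all tested genes, and 1 in limma-voom, against 0.437% of its genes. The seed markers summed to 1963 and 2046 FPKM in lux-6, against 211 and 16.1 FPKM in Col-0. Green leaf markers summed to 15363 and 14808 FPKM in lux-6 and to 17803 and 28960 FPKM in Col-0, and root markers to 2627 and 2990 FPKM in lux-6 and to 2960 and 1442 FPKM in Col-0. Green tissue and root were thus both represented, although NRT2-1 of the 5 root markers was listed at 0 in every library.

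TPS8 rose in lux-6, and it was the only gene among TPS8 to TPS11, the sugar-repressed class II members, to pass limma over all genes. It reached 80.6 and 85.5 FPKM in lux-6 (replicates 1 and 2, as for all pairs of values here), against 16.1 and 16.0 FPKM in Col-0. TPS11 was at 48.4 and 41.0 FPKM in lux-6, against 8.26 and 10.6 FPKM in Col-0. The lux-6 values of these genes lay far above those of Col-0, with no overlap. TPS8 rose 5.18-fold by the ratio of mean FPKM, with a log2 fold change of 2.30 and a standard error of 0.15 on the log2(FPKM + 1) scale (limma adjusted p = 0.0330). TPS11 stood 4.73-fold above Col-0, with a log2 fold change of 2.13 and a standard error of 0.20, and just missed the threshold of 0.05 (limma adjusted p = 0.0501). On fragments, where both genes passed, limma-voom gave adjusted p = 0.0357 for TPS8 and 0.0380 for TPS11.

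TPS9 and TPS10 showed smaller differences in the same direction. TPS9 was at 43.8 and 42.3 FPKM in lux-6, against 20.0 FPKM in both Col-0 libraries, a ratio of means of 2.15. TPS10, known from the same sugar-repressed group, was at 31.2 and 30.9 FPKM in lux-6, against 18.3 and 16.3 FPKM in Col-0, a ratio of means of 1.80. The groups did not overlap for either gene. Neither passed over all genes (limma adjusted p = 0.0886 and 0.159). Their log2 fold changes were 1.07 ± 0.15 for TPS9 and 0.81 ± 0.16 for TPS10 (standard error moderated across genes by limma, n = 2 libraries per genotype). The 95% intervals of these log2 fold changes, not adjusted for the number of genes, ran from 0.67 to 1.46 for TPS9 and from 0.39 to 1.23 for TPS10.

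**Figure D1:**
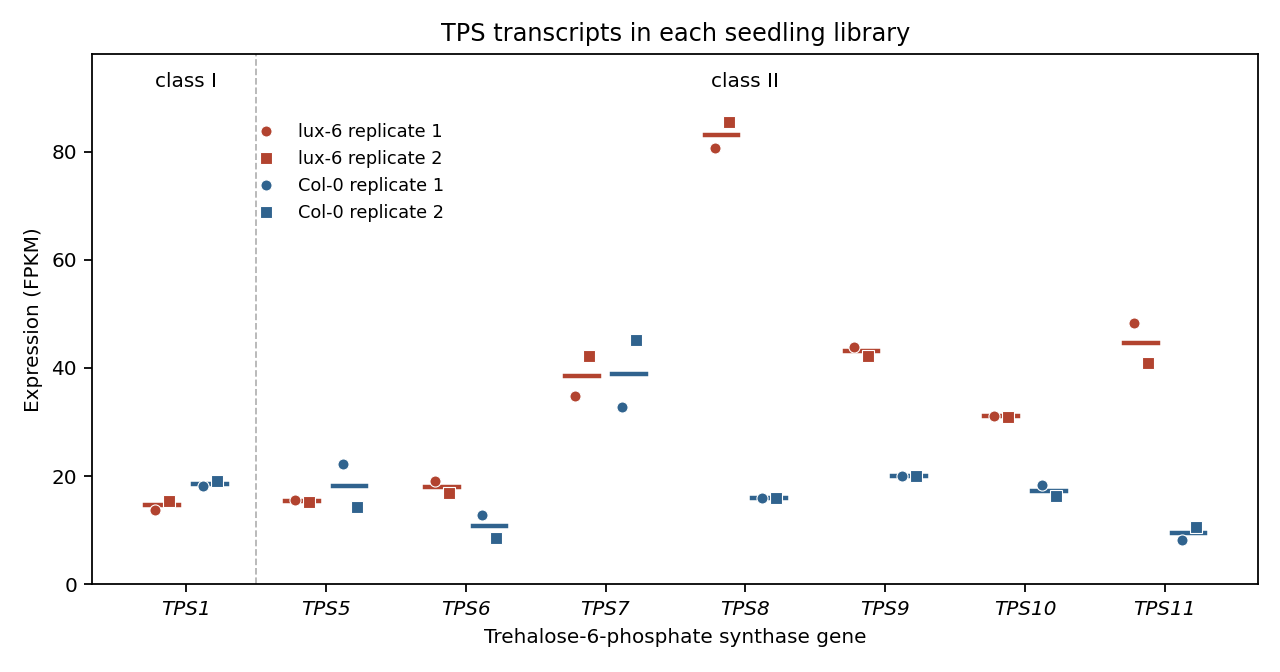
Expression of the 8 TPS genes in FPKM, with 1 point for each library, lux-6 to the left of Col-0 in each pair, and a line at the mean of the 2 libraries. TPS8 reached 80.6 and 85.5 FPKM in lux-6 against 16.1 and 16.0 FPKM in Col-0, while the points of TPS5 and TPS7 overlap between genotypes.

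TPS5, TPS6 and TPS7 form the remainder of class II. TPS5, the sucrose-induced member, was at 15.6 and 15.3 FPKM in lux-6, against 22.2 and 14.2 FPKM in Col-0. Its Col-0 libraries lay on both sides of the lux-6 pair, and its log2 fold change of -0.19 (limma adjusted p = 0.747) was 0.11 without Col-0 replicate 1. The 95% interval of -0.84 to 0.46 leaves room for a difference in either direction. TPS6, whose loss is known to alter leaf cell shape, was at 19.1 and 16.9 FPKM in lux-6, against 12.9 and 8.64 FPKM in Col-0. The groups did not overlap, but the log2 fold change of 0.71 ± 0.24 (standard error) did not pass (limma adjusted p = 0.358) and was 0.45 without Col-0 replicate 2. TPS7, whose protein is known to bind 14-3-3 proteins as TPS5 and TPS6 do, was at 34.8 and 42.1 FPKM in lux-6, against 32.7 and 45.1 FPKM in Col-0. Its groups overlapped, its log2 fold change was -0.0044 (limma adjusted p = 0.995), with a 95% interval of -0.59 to 0.58, and it turned to 0.22 without Col-0 replicate 2.

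TPS1, the member that makes trehalose-6-phosphate, was at 13.8 and 15.4 FPKM in lux-6, against 18.1 and 19.1 FPKM in Col-0. Both lux-6 values lay below both Col-0 values, by 0.784 as a ratio of means. The log2 fold change of -0.33 ± 0.17 (standard error) did not pass (limma adjusted p = 0.496), and its 95% interval ran from -0.77 to 0.10. AT1G78570 and the long non-coding RNA that overlap TPS1 make part of its reads uncertain, as given above.

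Of the 8 members, 1 was called higher and 0 lower, where over all 19592 tested genes 0.286% were called higher and 0.0051% lower. Limma-voom on fragments called 2 members higher, TPS8 and TPS11, against 0.437% of its genes, and 0 lower, against 0.0154%. The genotypes did not overlap for 6 members: lux-6 was higher for 5 of them, against 26.1% of all tested genes, and lower for TPS1, against 22.8%. The median log2 fold change of the members was 0.76 and that of all tested genes 0.05. By the size of the log2 fold change, 221 genes stood above TPS8 and 277 above TPS11. The seed markers named above were also higher in lux-6. In Col-0 replicates 1 and 2 they summed to 211 and 16.1 FPKM, where TPS8 was at 16.1 and 16.0 FPKM. The part of the seed markers in the values of the TPS genes was not tested. In whole seedlings, more cells of a type and more transcript per cell cannot be told apart.

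**Figure D2:**
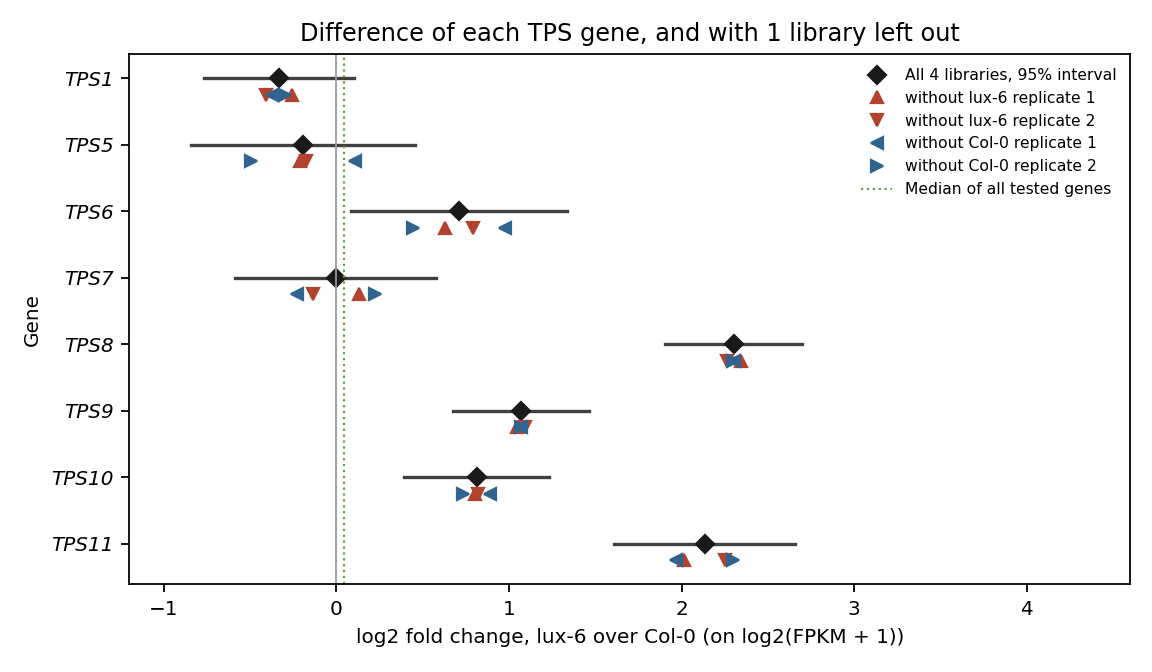
Difference of each TPS gene as the log2 fold change of lux-6 over Col-0 on log2(FPKM + 1), with diamonds and 95% intervals from limma on all 4 libraries and triangles for fits without 1 library. TPS8 stays at 2.26 to 2.35 and TPS9 at 1.04 to 1.09 whichever library is left out, while TPS5 and TPS7 cross 0.

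The calls depended on which libraries were in the fit. Without Col-0 replicate 2, the library that stood apart, TPS8, TPS9 and TPS11 were called higher, 3 of the 8 members, against 3.47% of all tested genes. Without Col-0 replicate 1, TPS6 and TPS8 to TPS11 were called higher, 5 of the 8 members, against 21.7% of all tested genes. In both fits the spread comes from the lux-6 libraries alone, so the larger counts carry no more weight. Without either lux-6 library no member was called, and TPS8 still stood at 2.35 and 2.26 (limma adjusted p = 0.443 and 0.482). The Col-0 libraries held almost the same level of TPS8 and TPS9, with differences of replicate 2 from replicate 1 of -0.004 and 0.001 on the log2 scale, against a median absolute difference of 0.35 over all tested genes. TPS5, TPS6 and TPS7 differed more between the Col-0 libraries, by -0.60, -0.53 and 0.45. TPS11 was higher in Col-0 replicate 2 by 0.33 and TPS10 lower by 0.16. The members rested on between 255 and 2772 fragments per library, for which counting alone gives a coefficient of variation of between 6.26% and 1.90%.

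The order of the members by level was different in the mutant and the wild type. FPKM is per length, so levels can be set side by side between genes. In lux-6 TPS8 was the highest member at 83.0 ± 3.51 FPKM, followed by TPS11 at 44.7 ± 5.25 and TPS9 at 43.1 ± 1.07 FPKM (SD, n = 2), and the libraries of TPS11 and TPS9 overlapped. TPS7, TPS10, TPS6, TPS5 and TPS1 came next, with overlap between TPS5 and TPS1 at the low end. In Col-0 TPS7 was the highest at 38.9 ± 8.75 FPKM, followed by TPS9 at 20.0 ± 0.0075 FPKM (SD, n = 2). TPS1, TPS5 and TPS10 followed by mean without clear separation. The Col-0 libraries of TPS5, at 22.2 and 14.2 FPKM, lay on both sides of TPS9 and of TPS8. TPS8 was the sixth by mean, and TPS6 and TPS11 were last and overlapped. TPS11 thus held the lowest mean in Col-0, 9.44 ± 1.67 FPKM, and the second highest in lux-6.

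The summed level of the 8 genes was 287 and 289 FPKM in lux-6, against 149 and 150.0 FPKM in Col-0. TPS8 to TPS11 together made up 71.0% and 69.0% of that sum in lux-6, against 42.2% and 41.9% in Col-0. TPS8 alone took 28.0% and 29.6% of the sum in lux-6, against 10.8% and 10.7% in Col-0. TPS5 to TPS7 together stood at 69.5 and 74.3 FPKM in lux-6 and at 67.8 and 68.0 FPKM in Col-0. The ratio of summed class II transcripts to TPS1 was 19.9 and 17.8 in lux-6, against 7.21 and 6.85 in Col-0. The larger pool in lux-6 therefore lay in TPS8 to TPS11.

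**Figure D3:**
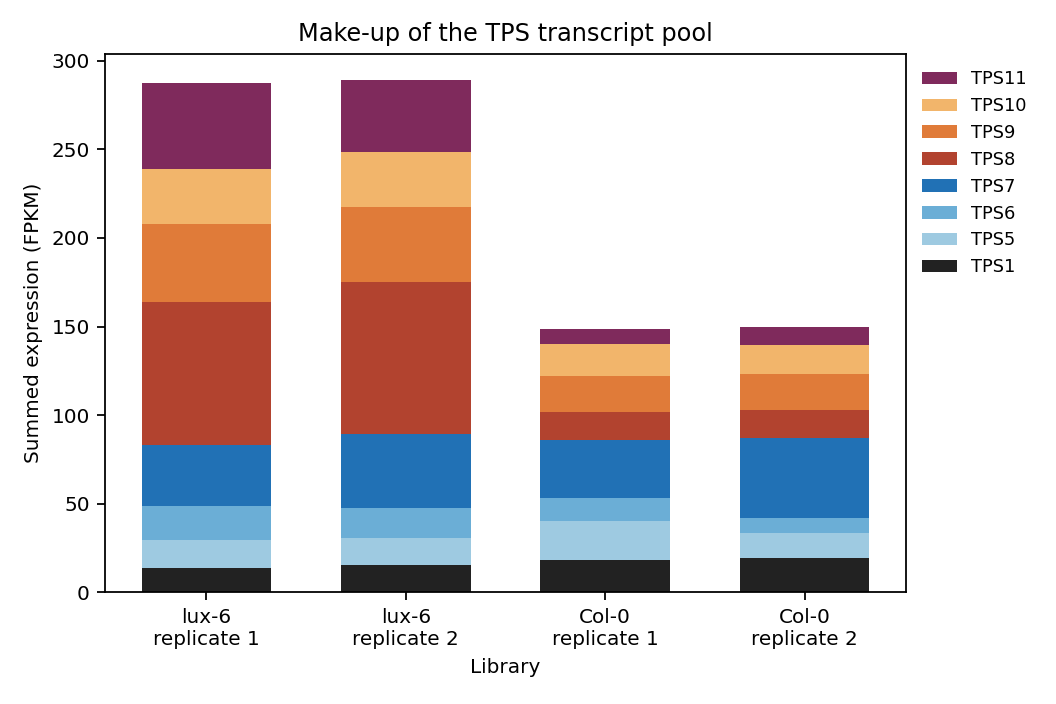
Stacked expression of the 8 TPS genes in FPKM, 1 bar per library, with TPS1 at the foot. The bars reach 287 and 289 FPKM in lux-6 and 149 and 150.0 FPKM in Col-0, and TPS8 to TPS11 (warm colours and purple) fill 71.0% and 69.0% of the lux-6 bars and 42.2% and 41.9% of the Col-0 bars.

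TPS8 and TPS9, the closest relatives by sequence, did not differ between genotypes to the same degree. The ratio of TPS8 to TPS9 was 1.84 and 2.02 in lux-6, against 0.803 and 0.800 in Col-0, so that the gene with the higher level changed between genotypes. The mean log2 ratio was 0.95 ± 0.10 in lux-6 and -0.32 ± 0.0037 in Col-0 (SD, n = 2), a difference of 1.27. The exact two-sided permutation test gave p = 0.333, the smallest p that 2 against 2 libraries allow.

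Among 15372 other genes that averaged 5 FPKM or more, the 3 whose profile over the 4 libraries was closest to that of TPS8 were AT5G22920, AT4G02330 and AT1G74450. Likeness was the Euclidean distance between log2(FPKM + 1) values after each gene's mean was taken off, and was 0.14, 0.15 and 0.18 for these genes. AT5G22920 was at 98.7 and 93.9 FPKM in lux-6, against 17.7 and 17.5 FPKM in Col-0. AT4G02330, named ATPMEPCRB in RefSeq, was at 18.5 and 17.9 FPKM in lux-6, against 3.21 and 3.20 FPKM in Col-0. AT1G74450 was at 27.1 and 33.6 FPKM in lux-6, against 5.17 and 5.74 FPKM in Col-0. TPS11 had a distance of 0.37 from TPS8, with 25 genes closer, and TPS9 one of 1.24, with 501 genes closer. With 4 libraries such likeness is a description only.

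No other gene of trehalose metabolism passed the test. Of 11 genes for trehalose-6-phosphate phosphatases, which turn trehalose-6-phosphate into trehalose, and for the trehalase TRE1, 8 were tested and none passed in limma or in limma-voom, where 2 had an unadjusted limma p under 0.05, against 12.3% of all tested genes. TPPH was at 8.17 and 8.35 FPKM in lux-6, against 5.02 and 4.94 FPKM in Col-0 (limma adjusted p = 0.306). TPPB was at 4.36 and 7.19 FPKM in lux-6, against 10.2 and 10.9 FPKM in Col-0 (limma adjusted p = 0.354). TPPI was at 5.51 and 6.82 FPKM in lux-6, against 7.75 and 28.7 FPKM in Col-0, a log2 fold change of -1.18 (limma adjusted p = 0.497), and it was far higher in Col-0 replicate 2 than in the other libraries. Without overlap, TPPH was higher in lux-6, 1 of 8 tested genes, against 26.1% of all tested genes. TPPB and TPPI were lower without overlap, 2 of 8, against 22.8% of all tested genes. TPPC, TPPF and TPPG were listed at 0 in all libraries, as were TPS2 and TPS3 of class I, and TPS4 was under 0.08 FPKM throughout. The median log2 fold change of the 8 tested genes was 0.18.

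Of 6 genes for SnRK1 subunits none passed in limma or in limma-voom. Of the 6, 1 had an unadjusted limma p under 0.05, against 12.3% of all tested genes. That gene was the beta subunit gene KINB1, at 39.9 and 43.7 FPKM in lux-6, against 20.7 and 28.0 FPKM in Col-0 (limma adjusted p = 0.262). KINB2, another beta subunit gene, was at 21.7 and 27.2 FPKM in lux-6, against 31.9 and 34.7 FPKM in Col-0 (limma adjusted p = 0.440), and the catalytic subunit gene KIN10 at 27.1 and 25.8 FPKM in lux-6, against 32.0 and 30.6 FPKM in Col-0. Of 6 bZIP factor genes linked to SnRK1, only BZIP63 had a mean of at least 1 FPKM. BZIP63, whose protein SnRK1 is known to phosphorylate, was at 21.4 and 23.5 FPKM in lux-6, against 9.81 and 11.7 FPKM in Col-0 (limma adjusted p = 0.134). BZIP1, BZIP2, BZIP11 and BZIP53 were listed at 0 in all libraries, and no value can be read from such listings.

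Markers of sugar status were set beside the TPS genes. Of 10 genes known to be repressed by sugar, 2 rose, against 0.286% of all tested genes, and 9 were higher in lux-6 without overlap, against 26.1% of all tested genes. BGLU30 overlapped, at 8.74 and 7.53 FPKM in lux-6, against 3.10 and 16.9 FPKM in Col-0 (limma adjusted p = 0.961). SEN5 rose to 450 and 360 FPKM in lux-6, against 46.7 and 36.1 FPKM in Col-0 (limma adjusted p = 0.0330). ASN1, an asparagine synthetase gene induced in darkness, was at 45.0 and 29.3 FPKM in lux-6, against 1.32 and 0.225 FPKM in Col-0 (limma adjusted p = 0.0453), though not called by limma-voom (adjusted p = 0.0571). SEN1, a dark-induced gene, was at 110 and 99.1 FPKM in lux-6, against 8.14 and 2.30 FPKM in Col-0, and was called by limma-voom (adjusted p = 0.0431) but not by limma (adjusted p = 0.0626). IVD, MCCA, BCE2 and DIN4, genes of branched-chain amino acid breakdown, had log2 fold changes of 0.59, 0.94, 0.42 and 0.79, and none passed the test.

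Of 6 genes known to be induced by sugar none passed in limma or in limma-voom. Of the 6, 3 had an unadjusted limma p under 0.05, against 12.3% of all tested genes. BAM5, a beta-amylase gene, was at 12.8 and 20.8 FPKM in lux-6, against 2.04 and 1.42 FPKM in Col-0 (limma adjusted p = 0.0575). GPT2, a glucose-6-phosphate transporter gene, was at 10.5 and 8.49 FPKM in lux-6, against 4.16 and 3.36 FPKM in Col-0 (limma adjusted p = 0.151). PAP1, a regulator of anthocyanin synthesis, lay on the other side at 3.79 and 1.53 FPKM in lux-6, against 6.75 and 7.72 FPKM in Col-0. The list had 2 members higher without overlap, against 26.1% of all tested genes, 2 lower, against 22.8%, and 2 overlapping, shares near those of all genes. It had a median log2 fold change of -0.11, against 1.09 for the sugar-repressed list. TPS8 to TPS11, known as sugar-repressed, were higher in lux-6 without overlap, as were 9 of the 10 sugar-repressed markers and 26.1% of all tested genes. The sugar-induced BAM5 and GPT2 were higher without overlap too. PAP1 and DFR of the same list were lower without overlap, as were 22.8% of all tested genes. TPS5, known as sugar-induced, overlapped between genotypes. The part of sugar in these values was not tested.

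**Figure D4:**
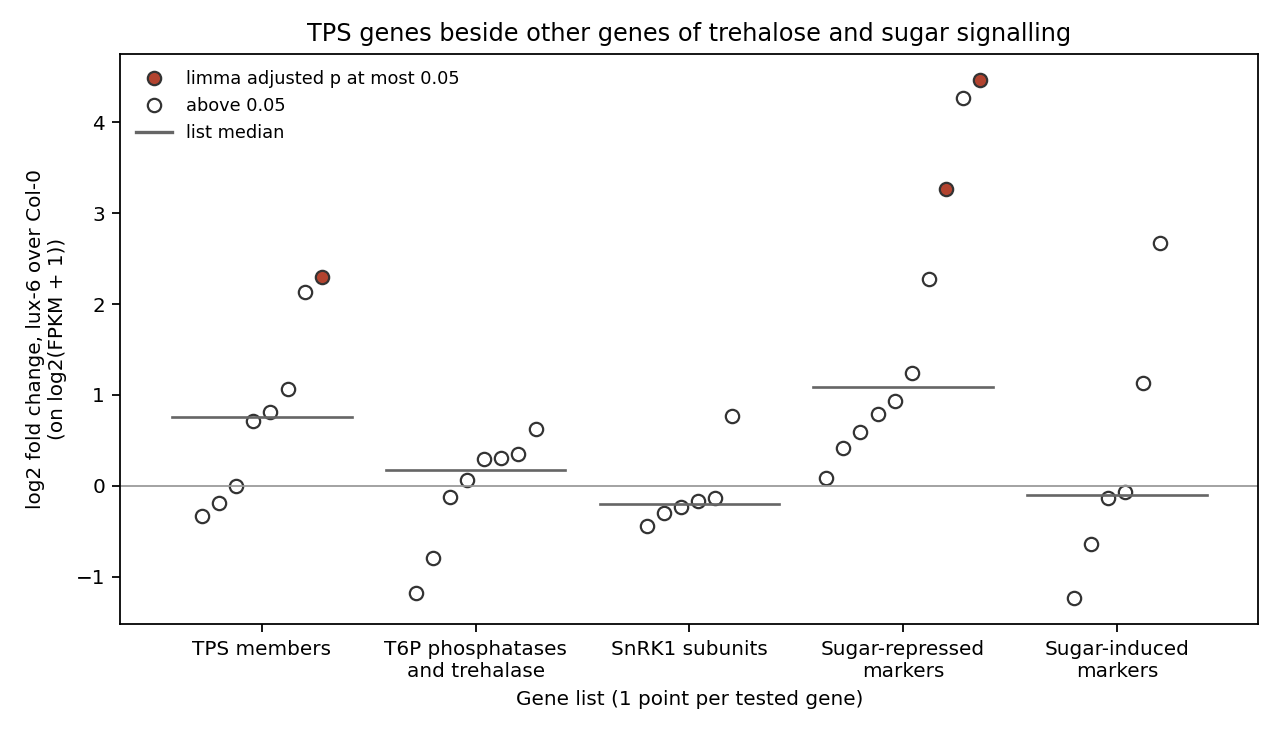
log2 fold changes of lux-6 over Col-0 on log2(FPKM + 1), 1 point per tested gene, filled where limma gave an adjusted p of at most 0.05, with a line at each list's median. The sugar-repressed markers have a median of 1.09 and the TPS genes one of 0.76, while the SnRK1 subunits have -0.20 and the sugar-induced markers -0.11.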

How the data were processed

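Whole seedlings were measured by RNA-seq in 2 lux-6 and 2 Col-0 libraries, grouped by title. Per the labels' protocols RNA was extracted with TRIzol, and libraries were prepared with the NEBNext Ultra RNA kit. TopHat2 2.0.12 and TAIR10 appear, without a stated role, per the submitters' processing notes. The counter and its gene lengths are not stated there. The authors deposited FPKM, per the file headers, with a file for each library. Since these are not counts, log2(FPKM + 1) was modelled with limma 3.58.1 (R 4.3.3, mean-variance trend, genotype alone), for 19592 genes averaging at least 1 FPKM. P-values were two-sided, adjusted over all these genes by Benjamini-Hochberg, and called at 0.05 or below. Fold changes on this scale understate those of low genes. Limma drew each gene's variance toward a trend over all genes, with prior degrees of freedom of 2.877 against 2 from the libraries. P-values, standard errors and intervals thus measure a gene's own spread between libraries only in part. The separate origin of the libraries rests on the series' description alone.

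Library totals and fragments were worked back from the FPKM by a search over gene lengths between 0.5 and 1.2 times the annotated one, which gave whole fragments within 0.002 for 82.9% of the 24532 genes above 0. For other genes, ASN1 among them, fragments were estimated from the annotated length and need not be whole. All fragments summed to between 104.73% and 105.49% of the library totals. Limma-voom on whole and estimated fragments was added after the data were seen. The scripts were tested on simulated data. There limma called 46 of 50 genes given a log2 change of 1, and 21 genes given none. The simulated scatter came from the lux-6 libraries, whose median absolute difference was 0.155, against 0.346 between the Col-0 libraries. The simulation thus does not show how the test fares with the Col-0 spread. Sequences are from RefSeq TAIR10.1, and the FPKM files hold no coordinates. Seed, leaf and root markers, companion lists and the rule for named genes (all members, then list members past the test or the 2 with the smallest p, and genes listed at 0) were chosen with earlier results of these data known, as were the members. SEN1, BGLU30, TPPI, KIN10, PAP1, DFR and the branched-chain genes were named after their values were seen.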

Additional observations from a re-analysis of the deposited data

How the results depend on the processing

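TPS8, TPS9, TPS10 and TPS11 stayed higher in lux-6 in all 11 alternatives, with log2 fold changes of 2.24 to 2.37, 1.01 to 1.11, 0.73 to 0.89 and 1.97 to 2.30. TPS6 ranged from 0.45 to 0.97 and TPS1 from -0.41 to -0.26. With 1 library left out, TPS5 ranged from -0.50 to 0.11, above 0 without Col-0 replicate 1, and TPS7 from -0.23 to 0.22, above 0 without lux-6 replicate 1 (0.13) or Col-0 replicate 2. TPS8 was called in 7 alternatives and lost with a pseudocount of 0.1 (limma adjusted p = 0.0526) and with no filter on low values (0.0865). TPS11 was called in 6. The cause was not tested.

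Members called higher, 1 as reported, numbered 0 with a pseudocount of 0.1 or no filter, 2 with a filter at 5 FPKM, with organelle genes removed and with limma-voom, and 0 to 5 with 1 library left out. Genes called higher, 56 as reported, and lower, 1 as reported, were 0 and 0 with a pseudocount of 0.1 or no filter (2316 and 2680 genes at an unadjusted limma p under 0.05, while limma-voom called 85 and 3). They were 97 and 3 with a filter at 5 FPKM, 95 and 1 with median-of-ratios scaling, and 128 and 4 with organelle genes removed. With 1 library left out they ranged from 0 to 4244 and from 0 to 2374. Companion list members called higher, 2 as reported, were 0 with a pseudocount of 0.1 or no filter, 4 with organelle genes removed and 0 to 14 with 1 library left out, and those called lower 0 to 4. In a fit that lacks 1 library, the lone library is taken to vary like the other genotype.

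Same-numbered deviations correlated at -0.03 across genes. Since Col-0 replicate 2 stood apart, this value cannot settle whether the replicate numbers pair the samples. With the replicate number as a block, 332 genes were called higher and 8 lower, 2 members higher and 5 companion genes higher.

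The members rested on at least 255 fragments in each library. With 2 libraries per genotype no exact permutation test can give a two-sided p under 0.333.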
